A study of Homo sapiens with 6 samples.

Results

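The ID genes and the SMAD genes that act with them were followed across 6 expression arrays of K562 cells, an established human line grown from a chronic myeloid leukaemia in blast crisis. The set holds 8 of 19775 measured genes, namely ID1, ID2, ID3 and ID4, the inhibitory SMADs SMAD6 and SMAD7, and the receptor-regulated SMADs SMAD1 and SMAD5. All probe sets that the platform annotation gives to 1 of these genes alone were taken, 22 of 54613, and 1 probe set shared by ID2 and ID2B was left out. The genes were chosen on results of these data already known, among them a lower ID1 signal with all-trans retinoic acid (ATRA). Differences between ATRA and its solvent DMSO are therefore given as a description with no test. Differences between siRNA and scrambled RNA were tested on the assumption that this contrast played no part in the choice, and the siRNA p-values rest on that assumption.

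Every culture was nucleofected, with the siRNA named RNAi8 in the labels (up to 200 nM) or with scrambled RNA. After 24 hours the cells received ATRA or DMSO, for a time that the sources used here do not give. Experiments 1 and 3 were ATRA experiments and experiment 2 was the DMSO experiment, and each gave 1 siRNA array and 1 scrambled array. ATRA and DMSO cells never share an experiment, so treatment and experiment cannot be told apart, and every DMSO value rests on 1 experiment. The arrays within an experiment are 1 sample each. In bulk RNA, fewer cells that express a gene and less RNA per cell cannot be told apart.

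ID proteins are helix-loop-helix proteins without a DNA-binding region. They bind E proteins, the common partners of tissue-specific basic helix-loop-helix factors such as TAL1 in blood cells, and keep them off DNA. The ID genes are classical targets of bone morphogenetic protein (BMP) signalling, in which receptors phosphorylate SMAD1 and SMAD5, which then enter the nucleus with SMAD4. SMAD6 and SMAD7 are induced by the same pathway and inhibit it as feedback, SMAD6 mainly in the BMP arm and SMAD7 also in the TGF-beta arm.

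The upstream sequences of ID1 and ID2 are shown because these genes had the lowest ATRA levels relative to DMSO of the set, and that of SMAD6 because it alone held a palindromic SMAD-binding element. They are the 250 bases before a RefSeq start site (build GRCh38.p14, each on the + strand), with chr20:31605039-31605288 for ID1, chr2:8681806-8682055 for ID2 and chr15:66701986-66702235 for SMAD6. Capitals mark matches on either strand to the CCAAT box (letters CCAAT), the TATA box (letters TATAAA), the SMAD-binding palindrome (GTCTAGAC), the core of GC-rich BMP elements (GGCGCC) or the cAMP response element (TGACGTCA).
ID1: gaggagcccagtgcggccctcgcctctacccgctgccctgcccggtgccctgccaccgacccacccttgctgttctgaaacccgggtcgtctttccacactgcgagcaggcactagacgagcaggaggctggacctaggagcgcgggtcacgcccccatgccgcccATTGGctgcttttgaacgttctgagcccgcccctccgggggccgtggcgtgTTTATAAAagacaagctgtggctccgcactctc
ID2: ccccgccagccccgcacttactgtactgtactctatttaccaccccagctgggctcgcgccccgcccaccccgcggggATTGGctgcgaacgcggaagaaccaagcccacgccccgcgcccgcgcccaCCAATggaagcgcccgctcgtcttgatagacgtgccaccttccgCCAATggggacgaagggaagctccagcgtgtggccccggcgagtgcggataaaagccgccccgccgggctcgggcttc
SMAD6: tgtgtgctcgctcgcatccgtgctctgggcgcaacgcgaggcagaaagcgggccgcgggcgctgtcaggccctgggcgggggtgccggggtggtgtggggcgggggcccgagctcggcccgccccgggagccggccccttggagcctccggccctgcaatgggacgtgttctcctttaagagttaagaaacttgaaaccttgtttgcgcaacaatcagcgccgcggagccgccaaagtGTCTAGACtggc

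ID1 held a CCAAT match at -84 to -80 from the start site and overlapping TATAAA matches on both strands at -33 to -26. ID2 held 3 CCAAT matches, at -172 to -168, -122 to -118 and -78 to -74, and no TATAAA match. SMAD6 held GTCTAGAC at -12 to -5. Of all 35116 windows of this length, 32.0% held CCAAT, 10.7% TATAAA and 0.182% GTCTAGAC. The table listed 14 windows for the 8 genes, 5 of them for SMAD1 and 3 for SMAD7. The core GGCGCC was in 16.4% of all windows and, within the set, in SMAD1 windows alone, and TGACGTCA was in 1.65% and in none of the set. The DR5 retinoic acid response element was searched on both strands by 1 exact spelling of its repeated part, and other spellings were not searched. This spelling was in 1 window of all and in none of the set. A spelling found in 1 of 35116 windows had little room to occur in 14. Its absence therefore cannot decide whether the set holds retinoic acid response elements. The E-box CANNTG, which basic helix-loop-helix dimers bind, was in 61.8% of all windows and in those of ID2, ID4, SMAD1, SMAD5 and SMAD7. The EGR1 motif GCGGGGGCG was in 4.72% and, within the set, in ID4. GC content was 66% for ID1, 69.2% for ID2 and 68% for SMAD6, against a median of 58% over all windows. These matches describe letters in a window and say nothing of binding.

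Series-wide checks were as follows. The median of all probe sets was 5.99 in log2 expression, and a probe set with a lower mean is called dim here, because its signal was not shown to be above background. The cut is no detection call, so a mean at or above it does not show signal above background either. Array medians lay between 5.96 and 6.02. PRAME, the gene named in the series title, had 54.4%, 55.4% and 65.9% of the scrambled signal in the siRNA arrays of experiments 1, 2 and 3. Arrays of experiment 3 correlated with the other 4 at 0.979 to 0.982 across probe sets, and those 4 with each other at 0.996 to 0.998. The actin 3' probe set exceeded the 5' one by 2.98 and 3.36 log2 units in experiment 3 and by 0.63 to 0.92 elsewhere. For GAPDH the gap was 1.2 and 0.74 in experiment 3 and 0.03 to 0.08 elsewhere. Marker genes were taken by their brightest probe set, and by that measure 12881 of all 19775 genes, ID1 not counted, lay at or above the median of all probe sets. All 10 measured genes of the K562 list, among them GATA1, TAL1, HBZ and TFRC, lay at or above that median. Of the lists for other cell types, 4 of 11 T and NK lymphocyte genes, 3 of 8 B lymphocyte genes, 4 of 9 monocyte and granulocyte genes, 5 of 10 stromal and endothelial genes and 6 of 8 epithelial genes did so. The summed levels of these lists ran from 66.3 to 68.9, 47.3 to 48.1, 53.6 to 54.5, 57.8 to 58.7 and 66.0 to 67.8 over the 6 arrays, in that order. CD3D, a T cell receptor chain gene that is bright in these cells at 10.08, was the 1 member of these lists whose ATRA arrays all lay below both DMSO arrays with a mean difference beyond -0.5 (-0.67, from -0.09 in experiment 1 and -1.26 in experiment 3).

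ID1 and ID2 lay lower in every ATRA array than in either DMSO array. For ID1 (probe set 208937_s_at) the log2 level was 7.22 with siRNA and 7.15 with scrambled RNA in experiment 1, 7.81 and 7.74 in experiment 2 (DMSO), and 6.43 and 6.68 in experiment 3. The order of the experiments was thus DMSO highest, then experiment 1, then experiment 3, and arrays of different experiments did not overlap. The mean was 6.87 ± 0.44 (SD, n = 2 ATRA experiments) against 7.78 in the DMSO experiment, a difference of -0.90. Experiment 1 held 66.4% of the DMSO signal and experiment 3 held 42.9%.

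ID2 followed the same order. Its bright probe set 201565_s_at read 6.92 with siRNA and 7.06 with scrambled RNA in experiment 1, 7.46 and 7.65 in experiment 2, and 6.17 and 6.22 in experiment 3. The groups did not overlap. The mean was 6.59 ± 0.56 (SD, n = 2) with ATRA against 7.55 with DMSO, a difference of -0.96, with 67.6% of the DMSO signal left in experiment 1 and 39.0% in experiment 3. The other ID2 probe set, 201566_x_at, was dim at 4.72 to 5.23, its ATRA and DMSO arrays overlapped, and its difference was -0.17.

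Much of both differences came from experiment 3, whose control transcripts had the larger 3' to 5' gaps. Without it, experiment 1 differed from experiment 2 by -0.59 for ID1 and by -0.56 for ID2. Experiment 3 differed from experiment 2 by -1.22 and -1.36. ID1 has 1 probe set, so no second reading of it within the array was available. The part of RNA quality in these differences was not tested.

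**Figure D1:**
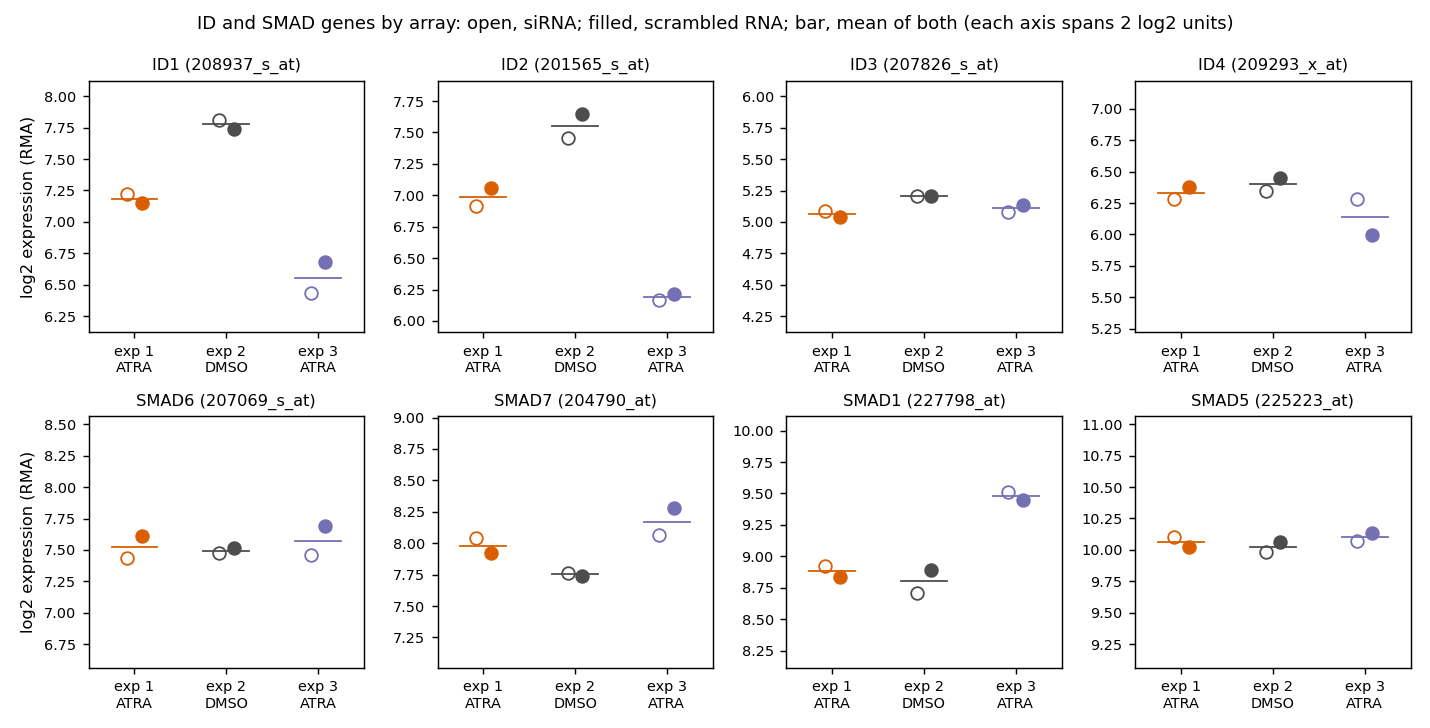
Log2 expression (RMA) of the brightest probe set of each gene in the 6 arrays, by experiment, with open circles for siRNA, filled circles for scrambled RNA and a bar at the mean of both; each vertical axis spans 2 log2 units. ID1 and ID2 are highest in the DMSO experiment (7.78 and 7.55) and lowest in experiment 3 (6.56 and 6.19), while SMAD6 and SMAD5 stay within 0.26 and 0.15.

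ID3 was dim, and ID4 had 1 probe set above the median level. The single ID3 probe set, 207826_s_at, stood at 5.04 to 5.13 in the ATRA arrays and 5.20 in both DMSO arrays, a difference of -0.12. Its 4 ATRA readings lay below both DMSO readings by small amounts. Of 5 ID4 probe sets 4 were dim, at 2.42 to 5.21, with differences of -0.12 to 0.12. The other, 209293_x_at, read 6.28 and 6.38 in experiment 1, 6.35 and 6.45 in experiment 2 and 6.28 and 5.99 in experiment 3, so that the groups overlapped.

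SMAD7, the feedback inhibitor of both arms, lay slightly higher with ATRA while ID1 and ID2 lay lower. Its probe set 204790_at read 8.04 and 7.92 in experiment 1, 7.76 and 7.74 in experiment 2, and 8.06 and 8.28 in experiment 3 (siRNA, then scrambled). All 4 ATRA arrays were above both DMSO arrays. The mean was 8.08 ± 0.13 (SD, n = 2) against 7.75, a difference of 0.32, of which experiment 1 gave 0.23 and experiment 3 gave 0.42.

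SMAD6, the feedback inhibitor of the BMP arm, showed no such separation. Its brightest probe set, 207069_s_at, read 7.43 and 7.61 in experiment 1, 7.47 and 7.51 in experiment 2 and 7.46 and 7.69 in experiment 3, and the difference was 0.06. The other 3 probe sets, at mean levels of 6.06 to 6.59, differed by -0.01, 0.02 and 0.17, and in all 4 the ATRA and DMSO arrays overlapped. One of them, 209887_at, held the same value (6.05) in all 3 siRNA arrays, and 18553 of all 54613 probe sets shared a value between at least 2 arrays.

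SMAD1 lay higher in experiment 3 alone. Its brightest probe set, 227798_at, read 8.92 and 8.84 in experiment 1, 8.71 and 8.89 in experiment 2 and 9.51 and 9.45 in experiment 3. Experiments 1 and 2 overlapped (difference 0.08), and experiment 3 stood 0.68 above experiment 2. For 210993_s_at the same differences were -0.04 and 0.24, and for the dim 208015_at they were 0.08 and -0.23.

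The 5 probe sets of SMAD5 gave different pictures of experiment 3. The probe set 205187_at read 7.81 and 7.55 in experiment 1, 7.46 and 7.54 in experiment 2, and 6.39 and 5.97 in experiment 3, which is -1.32 from DMSO. For 235451_at and 205188_s_at experiment 3 stood at -0.60 and -0.63 from DMSO. The 2 brightest, 225223_at and 225219_at, stood at 0.08 and -0.09 in experiment 3. In experiment 1 all 5 lay within 0.04 to 0.24 of DMSO, all on the higher side. No single change of SMAD5 can thus be read from experiment 3, where the actin and GAPDH gaps were larger as well. The positions of the probe sets on the transcript were not used here, and the part of RNA quality was not tested.

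**Figure D2:**
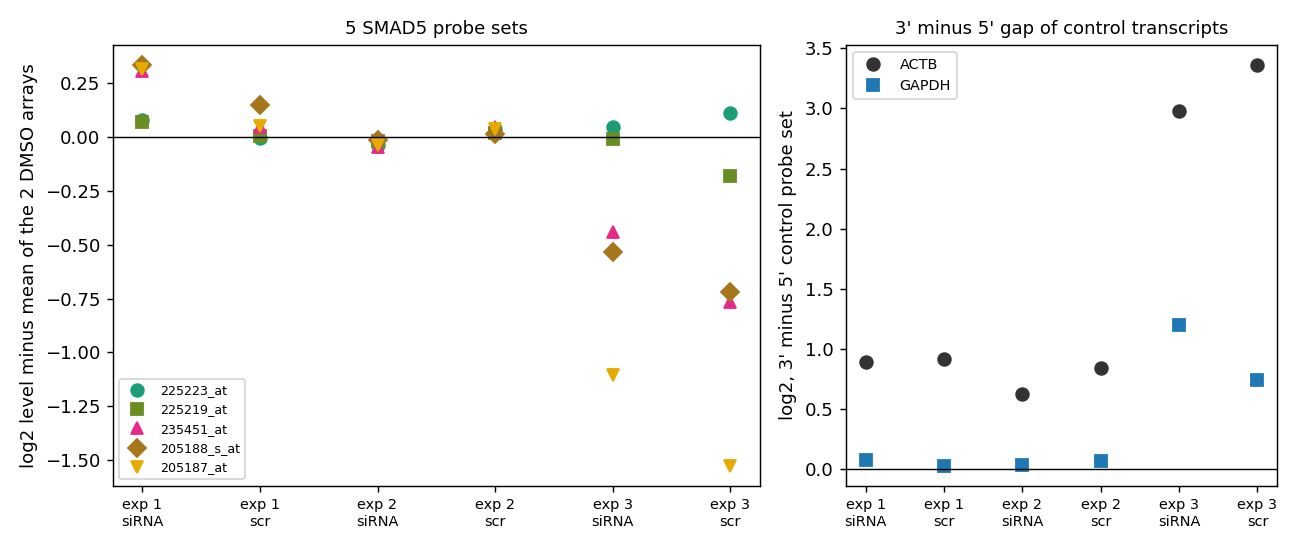
Left, the 5 SMAD5 probe sets in each array as log2 level minus the mean of both DMSO arrays; right, the 3' minus 5' gap of the actin (ACTB) and GAPDH control transcripts in the same arrays, in log2 units. In experiment 3 the probe sets spread from 0.08 to -1.32 by their means, and the actin gap is 2.98 and 3.36 against at most 0.92 elsewhere.

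Over the set, 2 of 22 probe sets (ID1 and the bright ID2) lay lower with ATRA by at least 0.5 log2 units with no overlap between ATRA and DMSO arrays, and 0 lay higher. Over all probe sets 0.833% lay lower and 2.09% higher by that rule, which has no test. Counting separation of any size, 3 lay below and 1 above, against 11.8% and 11.1% of all probe sets. In experiment 1 against experiment 2 alone, the same 2 lay lower and 0 higher, against 0.0751% lower and 0.461% higher of all. In experiment 3 against experiment 2, 5 lay lower (ID1, ID2 and 3 of SMAD5) and 1 higher (SMAD1), against 6.11% and 8.7% of all. The genes were chosen with this contrast in view, so nothing is read from these shares. The median ATRA difference was -0.05 over the 22 and -0.01 over all probe sets.

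**Figure D3:**
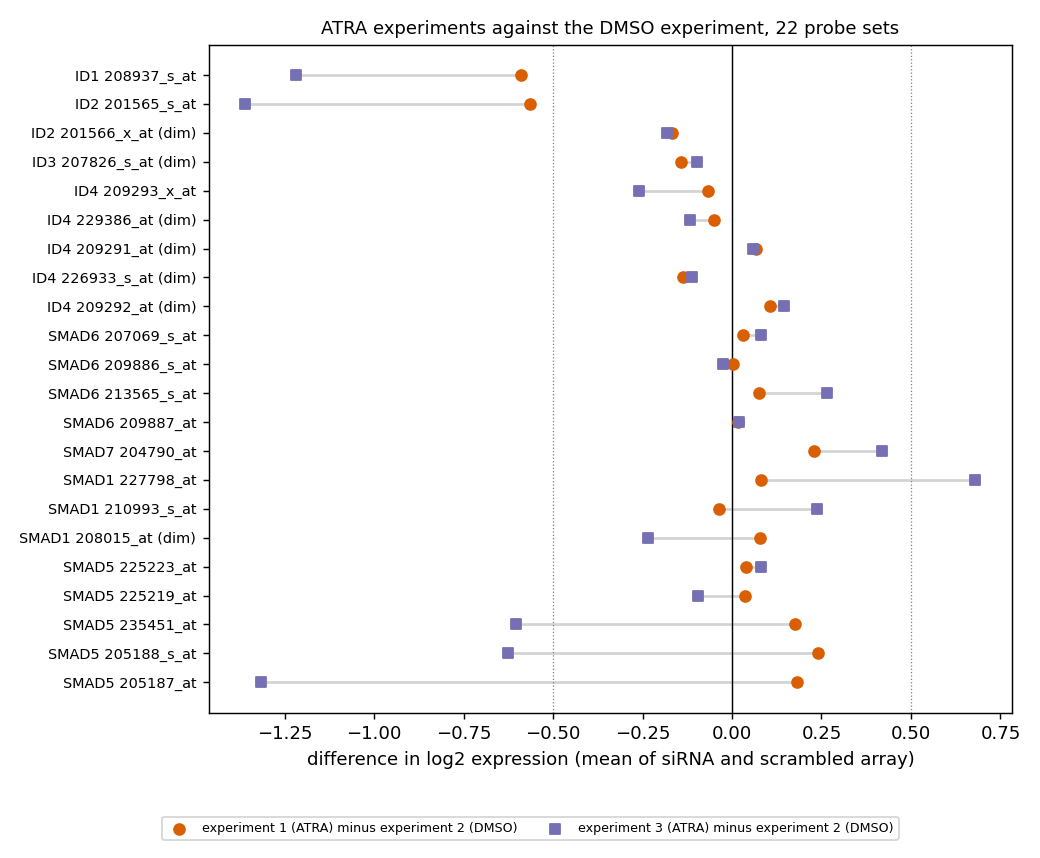
Differences in log2 expression of experiment 1 (circles) and experiment 3 (squares) from the DMSO experiment for all 22 probe sets, each from the mean of the siRNA and the scrambled array; dotted lines mark 0.5 either way. ID1 and the bright ID2 probe set are beyond the line in both, at -0.59 and -0.56 in experiment 1, while SMAD5 and SMAD1 probe sets cross it in experiment 3 alone.

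No gene of the set passed the test of siRNA against scrambled RNA. In limma with treatment as a covariate, 0 of the 22 probe sets passed (adjusted p = 1 for each), as did 0% of all probe sets. At an unadjusted p below 0.05 there were 0 of 22, against 1.2% of all. The experiment as a block sets each siRNA array against its scrambled partner. With it, 0 of 22 passed (adjusted p 0.872 to 0.998), and 0.00183% of all, which is 1 probe set, for PRAME. At an unadjusted p below 0.05 that fit had 1 of 22, the brightest SMAD6 probe set, against 5.27% of all.

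ID1 was higher with siRNA by 0.07 in experiment 1 and 0.07 in experiment 2, and lower by -0.25 in experiment 3. The mean difference was -0.04, with a 95% interval of -0.22 to 0.15 with the block and -0.67 to 0.59 without it. Its levels were 7.15 ± 0.69 (SD, n = 3) with siRNA and 7.19 ± 0.53 with scrambled RNA, so that the spread between experiments was far wider than any siRNA difference. ID2 was lower with siRNA in all 3 experiments, by -0.14, -0.19 and -0.05, with a mean of -0.13 (blocked 95% interval -0.28 to 0.02, adjusted p = 0.872). ID3 differed by 0.05, 0.00 and -0.05. The brighter ID4 probe set differed by -0.10, -0.10 and 0.29.

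SMAD6 by its brightest probe set was the other reading that was lower with siRNA in all 3 experiments, by -0.18, -0.04 and -0.23. The mean was -0.15 ± 0.06 (blocked SE), with a 95% interval of -0.30 to -0.00 and an adjusted p of 0.872 in limma. The other SMAD6 probe sets differed by -0.01 to 0.04. SMAD7 differed by 0.12, 0.02 and -0.21, a mean of -0.02 (blocked interval -0.20 to 0.15). SMAD1 differed by 0.09, -0.18 and 0.07 on 227798_at, and by 0.23, 0.12 and -0.03 on 210993_s_at.

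SMAD5 again differed between its probe sets. The brightest, 225223_at, gave 0.08, -0.08 and -0.06, and 225219_at gave 0.06, -0.04 and 0.17. The same order of signs, higher with siRNA in both ATRA experiments and lower under DMSO, was found in the 3 probe sets that lay low in experiment 3. For 205187_at the differences were 0.26, -0.07 and 0.42, and the mean of 0.20 had a blocked 95% interval of -0.01 to 0.42 (adjusted p = 0.872). For 235451_at they were 0.26, -0.09 and 0.33. For 205188_s_at they were 0.19, -0.03 and 0.19.

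**Figure D4:**
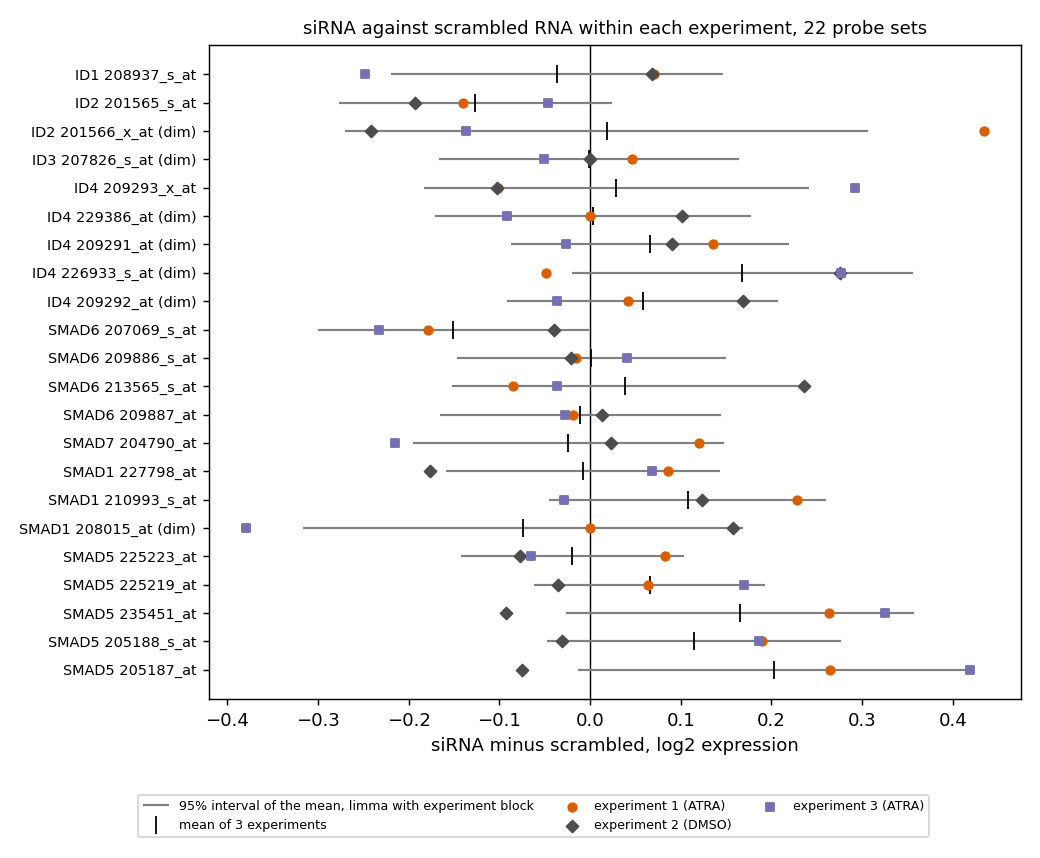
siRNA minus scrambled log2 expression within each of the 3 experiments for all 22 probe sets, with the mean (tick) and its 95% interval from limma with the experiment as a block. The interval of the brightest SMAD6 probe set (-0.30 to -0.00) is the one that ends short of 0, and the others include it.

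Whether the siRNA difference depended on ATRA was asked by an interaction term. In limma on 4 groups 0 of 22 passed (adjusted p = 1 for each) against 0% of all probe sets, and at an unadjusted p below 0.05 there were 0 of 22 against 1.29% of all. With the experiment as a block, 0 of 22 passed against 0% of all, and 2 of 22 had an unadjusted p below 0.05 against 2.8% of all. Both were SMAD5 probe sets, 205187_at with a difference of 0.42 (blocked 95% interval 0.06 to 0.77) and 235451_at with 0.39 (0.09 to 0.69). The intervals of the unblocked fit ran from -3.49 to 4.32 and from -1.72 to 2.49. For ID1 the difference was -0.16 (blocked interval -0.59 to 0.27) and for ID2 0.10 (-0.25 to 0.45). Effects of this size were not resolved with 1 DMSO experiment. Its spread was taken to be that of the ATRA experiments, and in the blocked fit the only spread between pairs was that of the 2 ATRA experiments. Both SMAD5 probe sets named here also lay low in experiment 3, at -1.32 and -0.60 from DMSO. The part of RNA quality in their siRNA differences was not tested.

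The genes whose profile over the 6 arrays was most like that of ID1 were sought among 12881 other genes at or above the median level, by the distance between profiles after each gene's mean was removed. The nearest were MS4A3, a membrane protein gene of the myeloid lineage (distance 0.21 log2 units), GAD1, which makes GABA from glutamate (0.24), ACRBP (0.28), S100A11, a calcium-binding protein (0.30), and GADD45A, a growth arrest and DNA damage gene (0.32). MS4A3 differed from DMSO by -0.59 in experiment 1 and -1.06 in experiment 3, and GAD1 by -0.59 and -1.23. ID2 came 8 in this order, at 0.33, with a Pearson r of 0.97 to ID1 over the 6 arrays. SMAD1 and SMAD7 lay far down the order, at 11851 and 10135, with r of -0.91 and -0.85. These likenesses are a description over 6 arrays of 3 experiments, and they include what set experiment 3 apart.

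The other genes of the pathway were taken from 8 lists with 156 genes, of which 145 were measured and each was represented by its brightest probe set. By the same rule of 0.5 without overlap, 1 gene lay lower with ATRA and 4 lay higher, against 0.673% and 2.23% of all 19775 genes. The siRNA test passed 0 of the 145 genes with or without the block. The median ATRA difference over them was -0.02, against -0.01 over all genes, and the median siRNA difference was 0.01, as over all genes.

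Among ligands, none of 13 measured BMP genes met the rule, with BMP7 at -0.19 and BMP8B at -0.02. Of 16 TGF-beta and activin ligands, INHBE, an activin subunit gene, lay higher by 0.56 and 0.57 in the ATRA experiments, at 7.29 and 7.31 against 6.74 with DMSO. GDF3, a TGF-beta family ligand, lay lower by -0.26 in experiment 1 and -0.78 in experiment 3, and GDF9 by -0.15 and -0.19. INHBE had the smallest unblocked siRNA p of the ligands, at -0.20 (unadjusted p = 0.0406, adjusted p = 1). GDF15, a stress-induced ligand, was lower with siRNA by -0.42, -0.13 and -0.71. In limma with the block its unadjusted p was smaller than that of INHBE, at 0.00212 against 0.0103 (blocked adjusted p = 0.872 for each). GDF2, also known as BMP9, was higher by 0.06, 0.07 and 0.21 (blocked adjusted p = 0.872).

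Of 15 extracellular antagonists none met the rule. TWSG1, which binds BMPs, stood at 0.21 and 0.73 from DMSO in experiments 1 and 3, and CHRD, the BMP antagonist chordin, at -0.07 and -0.06. Of 17 receptors and co-receptors none met it either. The type II receptor genes BMPR2 (0.49 and 0.34) and ACVR2B (0.11 and 0.57) lay higher in both ATRA experiments, and the co-receptor gene HJV lay lower (-0.22 and -0.29). With siRNA, ACVR2A differed by 0.25, 0.19 and 0.00 and the pseudoreceptor gene BAMBI by 0.13, 0.11 and 0.14, and both missed the test (blocked adjusted p = 0.872 each).

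Among 4 other SMADs, SMAD2, of the TGF-beta arm, stood at 0.11 and 0.45. Of 27 measured SMAD regulators, 1 met the rule as higher and 0 as lower. Counting separation of any size, 9 had all ATRA arrays above both DMSO arrays and 1 had them below, against 13.5% and 13.2% of all genes. The median difference over the 27 was 0.05, with 16 genes above 0 and 11 below. In this list 25 genes lay at or above the median level, a larger share than among all genes. ZFYVE16, an endosomal SMAD-binding protein, lay higher by 0.18 and 0.97. NEDD4L and SMURF2, ubiquitin ligases that act on SMADs and receptors, lay higher by 0.35 and 0.56 and by 0.30 and 0.36. TOB1, an antiproliferative protein that also binds SMADs, lay higher by 0.28 and 0.60. With siRNA, SKI, a SMAD corepressor, was lower by -0.04, -0.06 and -0.25, and USP11, a deubiquitinase, higher by 0.05, 0.06 and 0.23, without passing the test (blocked adjusted p = 0.872 each).

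Other target genes of the pathway lay on both sides of DMSO. KLF10, a zinc finger gene induced early by TGF-beta, lay higher by 0.31 in experiment 1 and 1.33 in experiment 3, and DAPK1, a death-associated kinase, by 0.19 and 0.90. TSC22D1, a TGF-beta-stimulated gene, lay lower by -0.25 and -0.27, and GATA2, a factor of blood progenitors, by -0.27 and -0.09. Of the 24 measured target genes 2 met the rule as higher and 0 as lower. LTBP2 and TSC22D1 had the smallest unblocked siRNA p among those at or above the median level with 1 sign throughout, with mean differences of 0.08 and 0.10 (adjusted p = 1 each).

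Of 31 measured partners and targets of ID proteins, none met the rule. RB1, the retinoblastoma gene, stood at 0.18 and 0.82, TAL2, a relative of TAL1, at -0.16 and -0.72, ELK4, an ETS factor, at 0.17 and 0.43, and USF2, a basic helix-loop-helix factor, at -0.11 and -0.27. With siRNA TAL2 differed by -0.07, -0.11 and -0.28, and NHLH1 by -0.03, -0.07 and -0.07, both without passing the test (blocked adjusted p = 0.872 and 0.907).

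**Figure D5:**
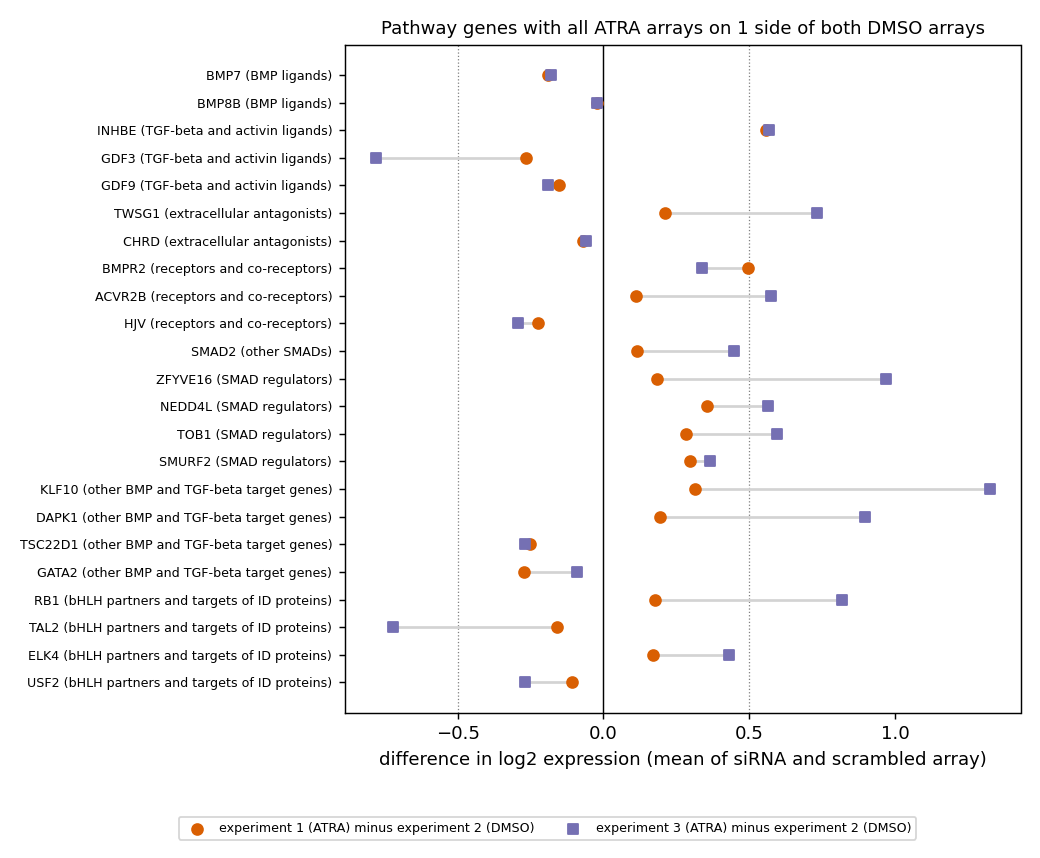
Differences in log2 expression of experiment 1 (circles) and experiment 3 (squares) from the DMSO experiment for the pathway genes named by rule, which had all ATRA arrays on 1 side of both DMSO arrays; the list of each gene is in brackets and dotted lines mark 0.5 either way. INHBE is beyond the line in both experiments (0.56 and 0.57), and KLF10 is furthest up in experiment 3 (1.33).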

How the data were processed

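Affymetrix HG-U133 Plus 2.0 arrays measured total RNA from 6 K562 samples. The values are log2 expression, which the authors made with RMA in BRB-ArrayTools per the labels and the series' design text. Its version is not given in the sources used here. Of 54675 probe sets, 62 controls were set aside, 41091 had 1 gene in the platform annotation, 1801 several and 11721 none listed. Nothing was normalized again or filtered in the main analysis.

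Differences were tested with limma 3.58.1 in R 4.3.3 (lmFit, eBayes with an intensity trend, Benjamini-Hochberg over all 54613 probe sets, threshold 0.05) and checked on simulated data. The experiment numbers pair the arrays, since the labels call the experiments independent. Deviations from the siRNA and scrambled group means correlated at 0.703, 0.772 and 0.879 within numbers, and at -0.785 to 0.594 between different numbers. Both arrays of a number also share the treatment, which these deviations still hold. The correlations are therefore no separate support for the pairing. P-values set a difference against the spread left over in the fit. Without the block that is spread between arrays of the same treatment, and with it spread between the differences of the pairs. The number of arrays limits the precision of these p-values.

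The members, lists and naming rule were chosen with earlier results of these data known. The rule took all member probe sets, up to 4 genes a pathway list by ATRA difference and up to 2 by siRNA p, at or above the median level, with arrays or experiments on 1 side, and the 5 genes nearest to ID1. Promoter windows came from RefSeq, and all 8 genes matched by symbol.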

Additional observations from a re-analysis of the deposited data

Results flagged for a closer look

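The brightest SMAD1 probe set was higher with siRNA in both ATRA experiments (0.09 and 0.07) and lower under DMSO (-0.18). The difference of 0.25 between treatments was tested by the interaction term in limma and missed the threshold (adjusted p = 1 with and without the experiment as a block). The other SMAD1 probe sets gave differences of -0.02 and -0.35.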

How the results depend on the processing

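The siRNA count of 0 probe sets without the pairing became 1 with the replicate block, which is PRAME, and the replicate block changed no other adjusted call. Leaving out an experiment gave 0 to 1. With the replicate block it gave 0 without experiment 1, 0 without experiment 2 and 1 without experiment 3. The count of 1598 probe sets beyond 0.5 by treatment without overlap became 2921 with siRNA arrays alone and 2174 with scrambled arrays alone. It became 8084 without experiment 1 and 293 without experiment 3. Without experiment 1 the count sets experiment 3 against experiment 2, with 3335 probe sets lower and 4749 higher. Without experiment 3 it sets experiment 1 against experiment 2, with 41 lower and 252 higher. Fewer arrays make the rule of no overlap easier to meet, but the count fell without experiment 3. The cause of these changes was not tested. With the probe sets of a gene averaged, 277 of 19775 genes were beyond 0.5, a count of genes and not of probe sets. ID1 stayed at -1.22 to -0.59 and ID2 at -1.36 to -0.56 under every alternative run.

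Small siRNA differences changed sign, as did that of ID2 (-0.13), and none of them passed a test. ID2 changed sign only with a single array left out, and stayed at -0.17 to -0.09 with a whole experiment left out. Leaving out arrays or experiments gave -0.25 to 0.20 for ID1, -0.38 to 0.10 for ID2, -0.028 to 0.026 for ID3, -0.10 to 0.12 for ID4, -0.12 to 0.085 for SMAD7, -0.21 to 0.14 for SMAD1 and -0.071 to 0.0090 for SMAD5. With the replicate block, experiment 3 left out gave 0.069 for ID1, 0.023 for ID3, -0.10 for ID4, 0.072 for SMAD7 and 0.0030 for SMAD5, and experiment 2 left out gave 0.077 for SMAD1 and 0.0090 for SMAD5. Averaging probe sets gave 0.0087 for SMAD1 and 0.11 for SMAD5. SMAD6 stayed at -0.21 to -0.03 under every alternative run.

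For the interaction, leaving out an ATRA experiment gave -0.32 to 0.0014 for ID1, -0.051 to 0.047 for ID3 and -0.24 to 0.10 for SMAD7. Quantile normalization gave 0.023 and median centring 0.013 for ID3, and averaging probe sets -0.062 for ID4 and -0.039 for SMAD1. The 7 dim probe sets, ID3 among them, were not shown to be above background.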

Other observations

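Probe sets of neighbouring and antisense genes were outside the set. The ID2 antisense gene ID2-AS1 had 2 probe sets. The dim 229756_at lay lower in every ATRA array, by -0.22 in experiment 1 and -0.31 in experiment 3, as ID2 did, while 236719_at, at 6.52, differed by 0.01 and -0.11 with overlap. The SMAD5 antisense gene SMAD5-AS1 (dim, 5.55) differed from DMSO by 0.15 and 0.06, and with siRNA by 0.08, 0.14 and 0.11. SMAD1-AS2 was dim at 3.41. The probe set shared by ID2B and ID2 was dim at 5.46 and differed from DMSO by -0.09 and -0.03.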
